A study of Mus musculus with 9 samples.

Results

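Mucins and the Golgi enzymes that build sialylated, fucosylated and branched glycans were followed in BG2 mouse mammary tumour cells, with and without Sox10. The members were the genes of the deposited table whose symbol starts with Galnt, B3gnt, Mgat, Fut, St3gal, St6gal (St6galnac included), St8sia or Muc, with a number after the letters except for St6gal. That rule used no expression value and gave 76 of the 24594 genes in the table: 17 Galnt, 8 B3gnt, 11 Mgat, 9 Fut, 6 St3gal, 8 St6gal, 7 St8sia and 10 Muc genes. Fut4-ps1, a transcribed pseudogene, and St8sia3os, a long noncoding RNA, are among them.

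The groups were Sox10 CRISPR knockout clone 1, Sox10 CRISPR knockout clone 2 and the wild-type BG2 bulk population, here called the control, whose library names hold NTC. All were mammary epithelial cells from endpoint tumours of MMTV-NeuIresCre (MMTV-NIC) mice, in which the mouse mammary tumour virus promoter drives both the Neu oncogene and Cre recombinase. Each clone descends from a bulk knockout population made with guide RNAs against exon 3 of Sox10, so loss of Sox10 and cloning cannot be told apart. Each group had 3 technical replicates of stranded, polyA-enriched RNA, numbered 1 to 3, and p-values measure only the spread between such libraries. The sources used here give no age for the mice.

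Total counts were 65805296 to 83282841 per library. Sox10, the targeted gene, had 0, 6 and 0 counts in clone 1 and 0, 2 and 2 counts in clone 2, against 16660, 21437 and 26038 counts in the control. Both clones stood apart from the control on the first principal component (81.9% of the variance) and from each other on the second (15.8%). The label of mammary epithelium was checked against 8 epithelial genes. All 8 were lower in each clone by the test defined below, where 38.6% and 37.1% of all genes tested were lower in clones 1 and 2. The summed level of the 8 epithelial genes was 1109 to 1260.3 CPM (counts scaled to library size) in clone 1 and 1362 to 1543 CPM in clone 2, against 6404 to 7632 CPM in the control. Epcam, Cldn3, Cldn4, Cldn7 and Esrp1 were near 0 in both clones, while Krt8 stayed at 666 and 787 CPM in clones 1 and 2, against 2393 CPM in the control. Of 10 fibroblast genes 6 were tested, of which 6 were higher in clone 1 and 5 in clone 2. Of all genes tested, 37.9% and 37.3% were higher in clones 1 and 2. The summed level of the 10 fibroblast genes was 1062 to 1135 CPM in clone 1 and 935 to 1127 CPM in clone 2, against 356 to 389.5 CPM in the control. Most of it was Fbln2, at 903, 903 and 366 CPM in clone 1, clone 2 and the control, followed by Pdgfra in each clone. Col1a1 averaged 2.95, 2.77 and 1.45 CPM, Lum and Thy1 were at 0 throughout, and Dcn and Fap were at 0 to 0.201 CPM. The 8 immune genes summed to 9.36 to 11.1, 37.9 to 39.8 and 7.29 to 12.4 CPM in clone 1, clone 2 and the control, nearly all of it Cd68, with Ptprc and Cd3e at or near 0. The 6 endothelial genes summed to 15.9 to 18.1, 0.816 to 1.09 and 0 to 0.108 CPM, with Kdr averaging 16.2 CPM in clone 1, 0.484 CPM in clone 2 and 0.0186 CPM in the control, Cdh5 0.0191, 0.146 and 0.00963 CPM, and with Pecam1 near 0 in all groups. The 5 adipocyte genes summed to 3.44 to 4.40, 7.93 to 9.90 and 0.554 to 0.729 CPM, nearly all Fabp4, with Adipoq and Plin1 at or near 0. These levels moved with the groups, except that the immune sum of clone 1 overlapped that of the control. The part of these levels in the results below was not tested. In bulk RNA, fewer cells of a type and less RNA per cell cannot be told apart.

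Mucin-type O-glycans start when a GALNT enzyme attaches N-acetylgalactosamine to serine or threonine of a protein. The chain is then extended, for example by B3GNT enzymes, and capped with sialic acid by ST3GAL, ST6GALNAC and ST8SIA enzymes or with fucose by FUT enzymes. N-glycans are transferred to asparagine as a preformed block, trimmed, and rebuilt into branched forms by MGAT enzymes, while mucins are the heavily O-glycosylated proteins that coat epithelial surfaces.

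Of the 76 members, 41 passed the filter on low counts and were tested. The other 35 never exceeded 16 counts in a library, and 15 of them had 0 counts in all 9 libraries. A member could pass because it was high in 1 group alone, in which case it had to differ, so counts over the tested members describe them and nothing more. A call here is an adjusted p under 0.05 in edgeR's quasi-likelihood test with Benjamini-Hochberg adjustment over all 13928 genes tested. In clone 1, 35 of 41 tested members (85.4%) were called, 18 higher and 17 lower, where 76.5% of all genes tested were called, 37.9% higher and 38.6% lower. In clone 2, 38 of 41 (92.7%) were called, 20 higher and 18 lower, where the share over all genes was 74.4%, with 37.3% higher and 37.1% lower. The median log2 fold change of the tested members was 0.11 in clone 1 and 0.12 in clone 2, where all genes tested had a median of 0.00 in each clone. The members' medians were the same with those at 0 counts in a group placed at their bound. At a 2-fold change or more, 10 members were called higher and 12 lower in clone 1 (53.7% of those tested, all genes 32.5%, with 16.3% in each direction), and 10 higher and 13 lower in clone 2 (56.1%, all genes 30.5%, with 15.1% higher and 15.4% lower). The 2 comparisons share the 3 control libraries, so their values are given side by side and are not independent of each other. The counts per family and per list below are to be read beside the same shares over all genes.

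**Figure D1:**
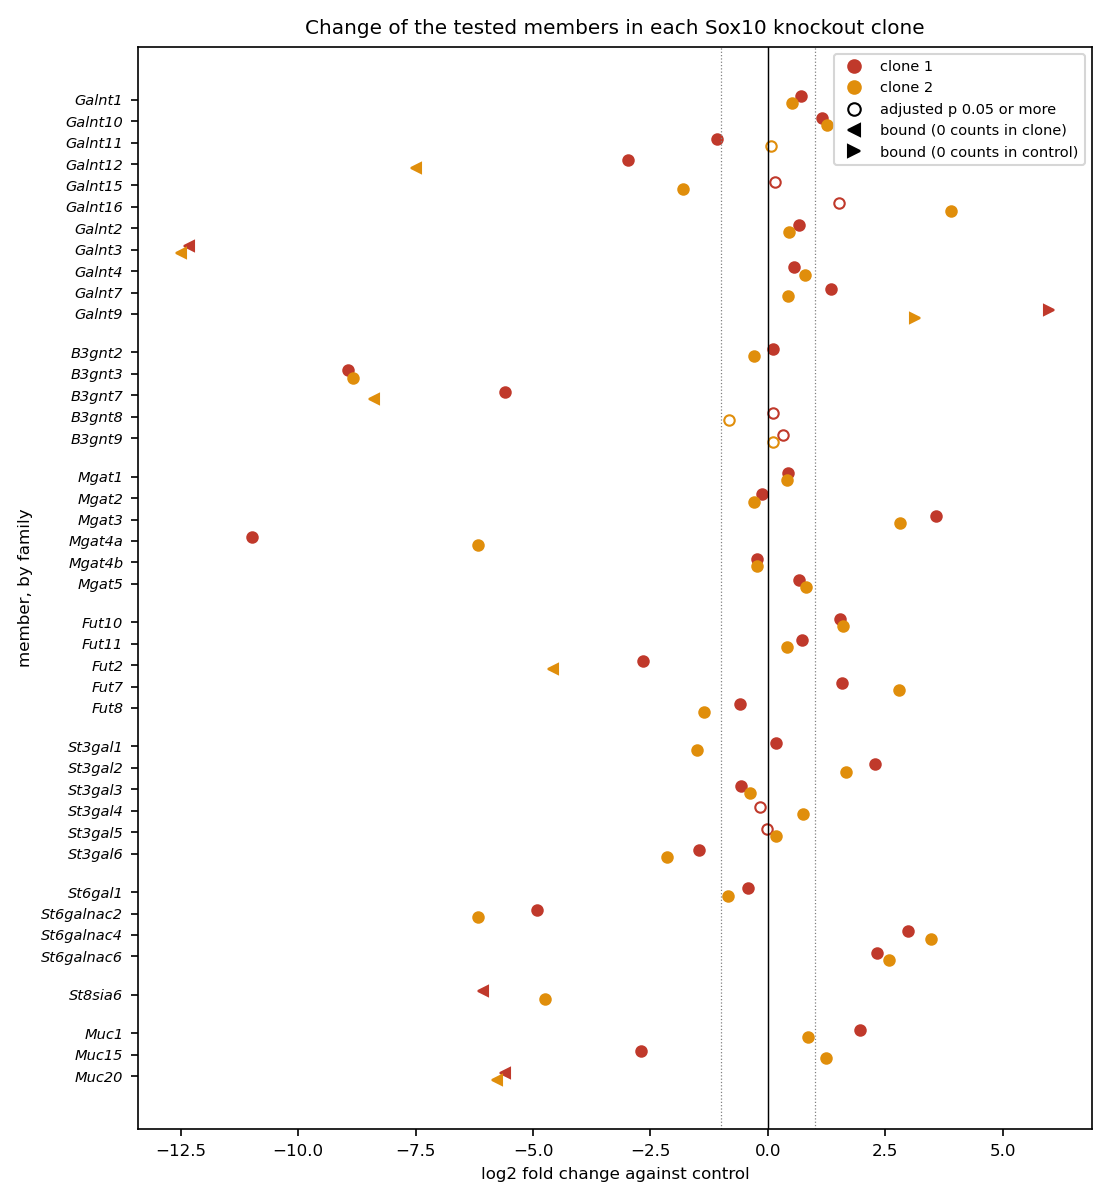
Log2 fold change (x axis) of each tested member (y axis, by family) in clone 1 and clone 2 against the control. Filled circles passed the test, open circles did not, triangles mark bounds where a group had 0 counts, and dotted lines mark a 2-fold change. Galnt3, B3gnt3 and Mgat4a lie far to the left, and Mgat3, St6galnac4 and St6galnac6 lie to the right in both clones.

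Promoter sequence is shown for 4 members: Galnt3 and B3gnt3, which were abundant in the control and at or near 0 in both clones, and the adjacent St6galnac4 and St6galnac6, which were higher in both. The windows are RefSeq sequence of build GRCm38.p6 on the gene's strand, 5′ to 3′, from 250 bases before to 50 bases after the start that RefSeq annotates. The gene positions given with the results are also from RefSeq, and the windows of Galnt3 and B3gnt3 lie inside the positions of their genes. Most of the St6galnac6 window before its start lies inside the positions of St6galnac4, on the same strand. Capitals mark CAGGTG on either strand (CACCTG on the other), an E-box that SNAIL and ZEB repressors are known to bind, and ACAAAG on either strand (CTTTGT on the other), a SOX-type core. The windows are chr2:66124744-66125043 on the minus strand for Galnt3, chr8:71701751-71702050 on the minus strand for B3gnt3, chr2:32586828-32587127 on the plus strand for St6galnac4 and chr2:32599459-32599758 on the plus strand for St6galnac6.
Galnt3: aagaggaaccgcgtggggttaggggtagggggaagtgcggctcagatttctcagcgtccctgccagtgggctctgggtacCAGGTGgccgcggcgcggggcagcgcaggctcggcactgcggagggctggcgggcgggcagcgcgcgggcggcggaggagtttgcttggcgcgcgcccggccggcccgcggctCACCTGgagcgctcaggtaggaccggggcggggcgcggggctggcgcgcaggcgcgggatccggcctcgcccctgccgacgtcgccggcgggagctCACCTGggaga
B3gnt3: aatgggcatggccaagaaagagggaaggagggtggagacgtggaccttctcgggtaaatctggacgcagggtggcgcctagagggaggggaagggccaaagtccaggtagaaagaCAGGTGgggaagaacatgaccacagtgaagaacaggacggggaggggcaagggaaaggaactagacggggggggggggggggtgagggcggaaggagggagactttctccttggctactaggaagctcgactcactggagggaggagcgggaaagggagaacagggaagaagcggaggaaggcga
St6galnac4: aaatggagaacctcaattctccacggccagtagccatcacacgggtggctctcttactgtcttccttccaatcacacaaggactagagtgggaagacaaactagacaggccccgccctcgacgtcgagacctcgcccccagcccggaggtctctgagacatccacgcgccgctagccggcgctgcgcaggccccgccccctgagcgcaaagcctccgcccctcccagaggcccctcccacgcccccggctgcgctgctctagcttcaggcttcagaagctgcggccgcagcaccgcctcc
St6galnac6: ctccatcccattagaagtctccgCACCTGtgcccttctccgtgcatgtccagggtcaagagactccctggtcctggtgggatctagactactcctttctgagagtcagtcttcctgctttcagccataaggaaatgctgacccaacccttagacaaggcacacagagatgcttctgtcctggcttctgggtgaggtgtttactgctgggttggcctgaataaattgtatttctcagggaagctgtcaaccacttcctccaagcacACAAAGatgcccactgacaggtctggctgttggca

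The Galnt3 window held 3 CAGGTG matches, at -170, -57 and +39 relative to the start, the B3gnt3 window held 1 at -135, and the St6galnac6 window held 1 at -227 with an ACAAAG match at +15. The match at -227 lies inside the positions of St6galnac4. The St6galnac4 window held neither motif, and another SOX-type core, ACAATG, was in none of the 4 windows on either strand (its reverse complement is CATTGT). Over all 32851 windows of the same length, 20.2% held CAGGTG, 18.7% ACAAAG and 12.6% ACAATG. Of the 71 windows of the 52 member genes that could be matched, 19.7% (14), 12.7% (9) and 7.04% (5) held them. The motifs do not overlap one another. A match describes these letters and is no measured binding site. The windows differ in CpG content: Galnt3 had 41 CpG dinucleotides, St6galnac4 23, B3gnt3 11 and St6galnac6 2, where the median window had 7 and 96.5% of windows had fewer than that of Galnt3.

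Galnt genes encode the enzymes that start O-glycosylation, and Galnt3 was abundant in the control and undetected in both clones. Of 17 Galnt genes 11 were tested, of which 6 rose and 3 fell in clone 1, with 7 and 3 in clone 2. Galnt3 (chromosome 2, 66082766 to 66125056, minus strand, GRCm38), whose enzyme glycosylates the hormone FGF23, had 0 counts in all 6 clone libraries, against 5559, 5047 and 5727 counts in the control. The control libraries lay at 80.3, 68.2 and 70.8 CPM, and no clone library overlapped them. With 3 counts over a group as the limit that a count of 0 allows, the level of Galnt3 in clone 1 lay at least 5148-fold lower, and in clone 2 at least 5761-fold lower (edgeR adjusted p = 1.50e-09 and 1.44e-09). Such bounds and all counting intervals here cover counting error only. Of counts from 1 to 20, 68.8 to 74.5% were even numbers in each library, against 49.6 to 51.6% of counts from 101 to 1000. Intervals here therefore treat 2 counts as 1 event, and with 2 counts per event the bounds would be lower by a factor of 2. Whether both reads of a pair were counted was not tested.

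**Figure D2:**
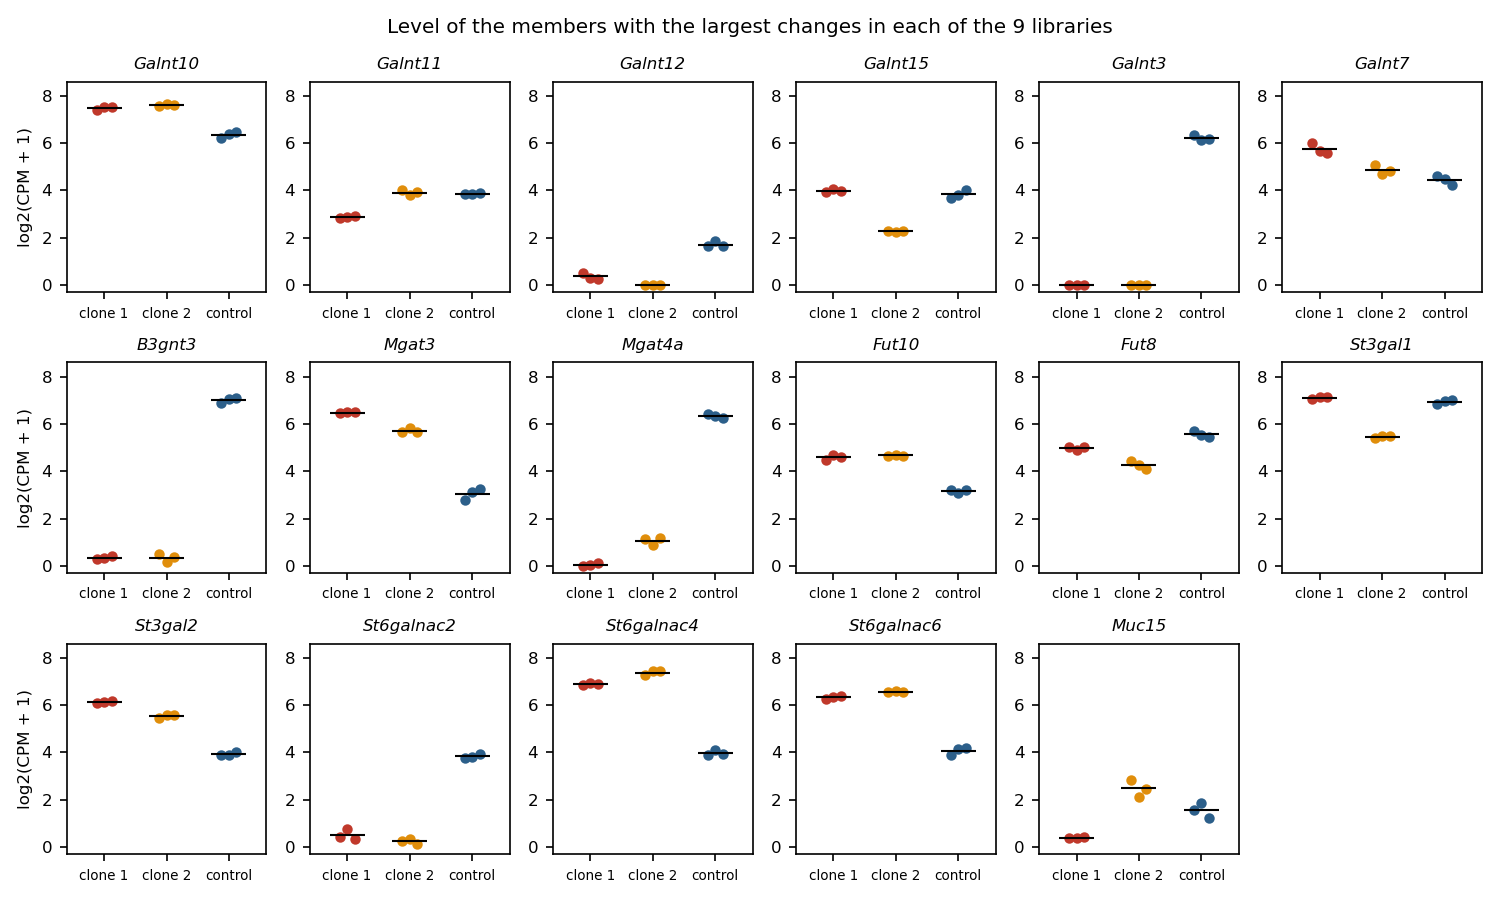
Level in each library (points, log2(CPM + 1), with a line at the mean of the 3 libraries) of the 17 members shown by library, for clone 1, clone 2 and the control from left to right. Galnt3 has 0 counts in all 6 clone libraries, B3gnt3 and St6galnac2 lie far under the control in both clones, and Muc15 lies under the control in clone 1 and above it in clone 2.

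Galnt12 also fell, at a lower level. It had 28, 18 and 14 counts in clone 1 and 0, 0 and 0 counts in clone 2, against 146, 190 and 171 counts in the control. That is 7.99-fold lower in clone 1 (95% counting interval 5.47 to 12.1), and in clone 2 at least 179-fold lower (adjusted p = 1.07e-05 and 3.14e-07). Galnt15 lay at 14.0, 15.6 and 14.8 CPM in clone 1 and at 3.82, 3.73 and 3.88 CPM in clone 2, against 11.6, 13.0 and 15.2 CPM in the control. Clone 1 overlapped the control, with a log2 fold change of 0.16 ± 0.10 (SE, adjusted p = 0.186), while clone 2 lay under both (-1.80 ± 0.11, adjusted p = 3.61e-08). Without control replicate 3 the clone 1 value passed the test at 0.26. Galnt11, whose enzyme glycosylates Notch receptors, showed the opposite arrangement of the clones. It lay at 6.02, 6.36 and 6.62 CPM in clone 1 and at 15.0, 12.9 and 14.0 CPM in clone 2, against 13.2, 13.3 and 13.6 CPM in the control. It fell in clone 1 (-1.08 ± 0.08, adjusted p = 3.43e-07), and clone 2 overlapped the control (0.06 ± 0.08, adjusted p = 0.515).

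Galnt10, Galnt7, Galnt2, Galnt1 and Galnt4 rose in both clones. Galnt10, which prefers peptides that already carry N-acetylgalactosamine, lay at 169.6, 182 and 185 CPM in clone 1 and at 187, 201 and 196 CPM in clone 2, against 73.7, 81.7 and 86.8 CPM in the control. Every clone library was above every control library (log2 fold changes 1.15 ± 0.06 and 1.27 ± 0.06, adjusted p = 1.80e-08 and 8.02e-09). Galnt7, another enzyme with that preference, lay at 62.2, 49.8 and 46.6 CPM in clone 1 and at 32.5, 24.5 and 27.5 CPM in clone 2, against 23.1, 21.4 and 17.8 CPM in the control. It rose in clone 1 (1.35 ± 0.14, adjusted p = 3.28e-06) and in clone 2 (0.44 ± 0.14, adjusted p = 0.0121), a call lost in clone 2 without control replicate 3 (0.33). Galnt2, one of the broadly expressed initiating enzymes, averaged 482 ± 17.0 CPM in clone 1 and 414 ± 18.0 CPM in clone 2, against 303 ± 13.0 CPM in the control (SD, n = 3 each). Galnt1, the other broadly expressed one, averaged 184 ± 14.7 and 162 ± 18.6 CPM in clones 1 and 2, against 113 ± 12.3 CPM in the control. Galnt4 averaged 21.7 and 25.5 CPM in clones 1 and 2, against 14.8 CPM in the control. All 3 rose in both clones by less than 2-fold (log2 0.45 to 0.79). In the annotation, 90.0% of Galnt2's exon bases are shared on the same strand with the readthrough model Gm20388, so its counts depend on how shared reads were assigned.

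Galnt9 was detected in the clones alone, with 51, 72 and 56 counts in clone 1 and 14, 8 and 6 counts in clone 2, against 0 counts in each control library. That is at least 63.1-fold higher in clone 1, and in clone 2 at least 8.82-fold higher (adjusted p = 3.32e-06 and 0.000505). Galnt16 had 30, 46 and 25 counts in clone 2, against 4, 2 and 0 counts in the control (15.9-fold higher, 95% counting interval 5.09 to 79.0, adjusted p = 0.000316). In clone 1 it had 6, 9 and 2 counts (adjusted p = 0.139). Galnt5, Galnt6, Galnt13, Galnt14, Galnt17 and Galnt18 stayed at or under 8 counts per library.

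Levels of different genes are compared per kilobase of exon. On that scale Galnt2 held 58.0% of the summed Galnt level in clone 1 and 56.3% in clone 2, against 53.0% in the control. Galnt1 and Galnt10 followed in both clones, whereas Galnt1 and Galnt3 (12.5%) followed in the control. The summed family level was 194 CPM per kilobase in clone 1 and 172 in clone 2, against 133 in the control.

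**Figure D3:**
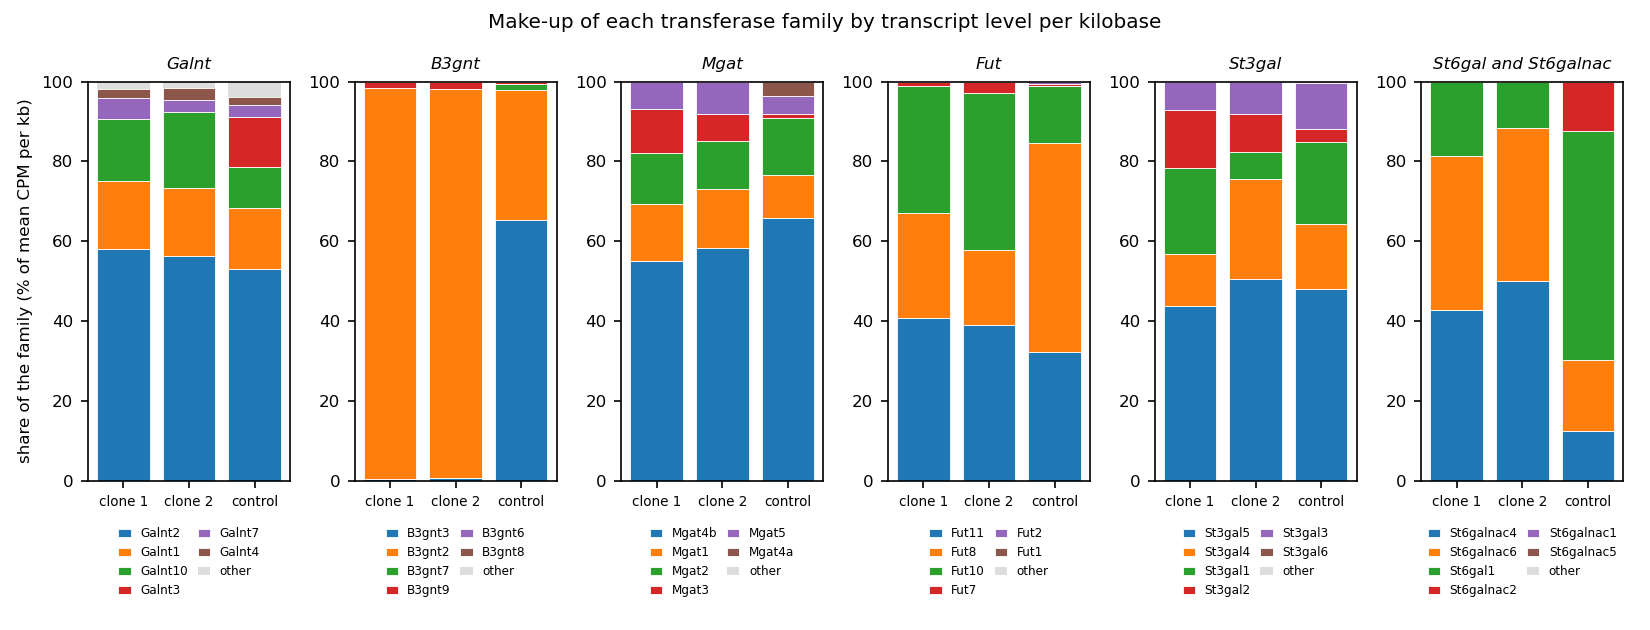
Share of each family's summed level per kilobase of exon (y axis, percent) held by its leading members, for clone 1, clone 2 and the control. B3gnt3 holds 65.2% of the B3gnt level in the control and under 1% in the clones, and St6galnac4 and St6galnac6 lead the St6gal family in the clones, where St6gal1 leads it in the control.

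The B3gnt genes add N-acetylglucosamine in beta linkage to galactose or N-acetylgalactosamine and so extend glycan chains. Of 8 genes 5 were tested, of which 1 rose and 2 fell in clone 1, with 0 and 3 in clone 2. B3gnt3 (chromosome 8, 71691373 to 71702626, minus strand), whose enzyme extends core 1 O-glycans, had 14, 19 and 22 counts in clone 1 and 36, 8 and 23 counts in clone 2, against 8194, 9686 and 11059 counts in the control. The control libraries lay at 118, 131 and 137 CPM and every clone library under 0.5 CPM. It was 498-fold lower in clone 1 (95% counting interval 338 to 736) and 457-fold lower in clone 2 (322 to 651), with adjusted p = 1.58e-11 and 1.53e-11. B3gnt7 had 6, 0 and 12 counts in clone 1 and 0 counts in each clone 2 library, against 270, 318 and 361 counts in the control. That is 49.9-fold lower in clone 1, and in clone 2 at least 335-fold lower (adjusted p = 3.97e-06 and 1.30e-06).

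B3gnt2, the main enzyme of poly-N-acetyllactosamine chains, changed little, at 97.6, 94.9 and 93.9 CPM in clone 1 and 75.8, 70.8 and 70.5 CPM in clone 2, against 89.1, 86.0 and 89.4 CPM in the control. Its small rise in clone 1 (log2 0.11 ± 0.05, adjusted p = 0.0473) was lost under both other scalings, DESeq2 and most left-out libraries, and its fall in clone 2 was -0.29 ± 0.05 (adjusted p = 0.000220). Of its exon bases 58.6% are shared on the same strand with the model Gm28048. Per kilobase, B3gnt2 made up 97.9% of the family in clone 1 and 97.7% in clone 2, against 32.7% in the control, where B3gnt3 held 65.2%. The family sum was 23.3 and 17.7 CPM per kilobase in clones 1 and 2, against 64.6 in the control. B3gnt8 and B3gnt9, both under 1.5 CPM in every library, were not called in either clone. B3gnt6, the core 3 enzyme, had 4 and 2 counts in all over clones 1 and 2, against 26 counts over the control, and was not tested.

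The Mgat genes build the antennae of N-glycans, and here the branch enzymes changed in different directions. Of 11 genes 6 were tested, of which 3 rose and 3 fell in each clone. Mgat4a, which adds an antenna to N-glycans, had 0, 2 and 6 counts in clone 1 and 101, 62 and 97 counts in clone 2, against 5864, 5842 and 6043 counts in the control. It was 2098-fold lower in clone 1 (95% counting interval 819 to 7701) and 72.2-fold lower in clone 2 (60.7 to 86.6), with adjusted p = 1.54e-11 and 5.39e-11. Mgat4b, which catalyses the same step, lay at 249, 252 and 271 CPM in clone 1 and at 251, 271 and 252 CPM in clone 2, against 266, 306 and 335 CPM in the control. Its ranges overlapped those of the control. Its log2 fold change was -0.23 ± 0.08 in each clone (adjusted p = 0.0163 and 0.0184), a call lost in each clone when any of 3 libraries was left out, among them control replicate 3 (-0.16 in each clone). Per kilobase, Mgat4b was the leading Mgat gene in all groups, with 55.0% and 58.3% of the family in clones 1 and 2, against 66.0% in the control.

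Mgat3, which adds the bisecting N-acetylglucosamine, went the other way. It lay at 86.9, 89.5 and 88.7 CPM in clone 1 and at 49.0, 55.2 and 50.3 CPM in clone 2, against 5.89, 7.62 and 8.54 CPM in the control. The groups did not overlap, and the log2 fold changes were 3.58 ± 0.11 and 2.81 ± 0.11 (adjusted p = 1.42e-10 and 9.63e-10). Mgat5, which opens the branch that carries long lactosamine chains, averaged 123 ± 5.45 CPM in clone 1 and 137 ± 4.53 CPM in clone 2, against 78.0 ± 4.71 CPM in the control (log2 0.66 and 0.81). Mgat1, which starts complex N-glycans, averaged 115 ± 3.89 CPM in clone 1 and 114 ± 3.11 CPM in clone 2, against 85.4 ± 5.38 CPM in the control (log2 0.43 and 0.41). Mgat2, which starts their second arm, averaged 57.4 ± 0.448 and 51.1 ± 2.05 CPM in clones 1 and 2, against 62.8 ± 0.455 CPM in the control (log2 -0.13 and -0.30). The clone 1 call of Mgat2 was lost without any one clone 1 library.

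The Fut genes attach fucose. Of 9 genes 5 were tested, of which 3 rose and 2 fell in each clone. Fut8, the single enzyme of core fucose on N-glycans, lay at 31.4, 28.9 and 32.0 CPM in clone 1 and at 20.4, 18.1 and 16.3 CPM in clone 2, against 51.0, 45.5 and 42.8 CPM in the control. It fell in both clones, with clone 2 the lowest (-0.59 ± 0.09 and -1.35 ± 0.09 in clones 1 and 2, adjusted p = 9.76e-05 and 1.11e-07). Fut10, a divergent member of the family, lay at 21.4, 25.1 and 23.6 CPM in clone 1 and at 24.3, 25.0 and 23.9 CPM in clone 2, against 8.36, 7.50 and 8.30 CPM in the control. All clone libraries were above the control (1.54 ± 0.08 and 1.60 ± 0.08, adjusted p = 9.54e-09 and 6.86e-09). Fut11, its closest relative in the family, averaged 25.4 ± 1.49 CPM in clone 1 and 20.5 ± 0.527 CPM in clone 2, against 15.4 ± 1.04 CPM in the control. Fut8 led the family per kilobase in the control with 52.2%, while it held 26.5% and 18.7% in clones 1 and 2.

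Fut7 and Fut2, which make sialyl Lewis x and the H antigen, stayed under 1 CPM in every library. Fut7 had 20, 32 and 22 counts in clone 1 and 72, 65 and 56 counts in clone 2, against 6, 12 and 8 counts in the control (3.01- and 7.02-fold higher, adjusted p = 0.00155 and 9.72e-06). Fut2 had 4, 2 and 4 counts in clone 1 and 0 counts in each clone 2 library, against 22, 34 and 12 counts in the control. That is 6.43-fold lower in clone 1 (95% counting interval 2.50 to 21.1, adjusted p = 0.00369), and in clone 2 at least 24.0-fold lower (adjusted p = 0.000210). Fut4 had 0 counts in all 9 libraries, which allows up to 0.0142 CPM in clone 1, 0.0127 CPM in clone 2 and 0.0134 CPM in the control.

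Among the sialyltransferases, 2 St6galnac genes rose together. St6galnac4, whose enzyme adds sialic acid to an already sialylated core 1 O-glycan, lay at 113, 121 and 119 CPM in clone 1 and at 153, 170.5 and 171 CPM in clone 2, against 13.9, 16.0 and 14.4 CPM in the control. The log2 fold changes were 2.99 ± 0.07 and 3.48 ± 0.07 (adjusted p = 1.07e-11 and 3.98e-12). St6galnac6, known for sialylating gangliosides, lay at 76.1, 79.3 and 82.9 CPM in clone 1 and at 91.6, 95.5 and 93.7 CPM in clone 2, against 13.7, 16.6 and 17.0 CPM in the control. It rose by 2.33 ± 0.08 and 2.57 ± 0.08 on the log2 scale (adjusted p = 2.58e-10 and 1.26e-10). All clone libraries of both genes were above all control libraries.

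The 2 genes lie next to each other on chromosome 2 (GRCm38), St6galnac4 from 32587078 to 32599696 and St6galnac6 from 32599709 to 32620809, both on the plus strand and 13 bases apart. Ak1, an adenylate kinase gene 949 bases further on, averaged 273 and 315 CPM in clones 1 and 2, against 40.4 CPM in the control (log2 2.76 and 2.96, called in both). Eng, 25786 bases from St6galnac6, averaged 6.67 and 8.43 CPM in clones 1 and 2, against 66.3 CPM in the control (-3.31 and -2.98). Fam102a, 17328 bases on the other side of St6galnac4, averaged 12.4 and 32.5 CPM in clones 1 and 2, against 64.7 CPM in the control (-2.38 and -0.99). These neighbours, and those named below, were chosen after their values were seen. B3gnt3 had a neighbour that fell with it, Fcho1 at 5761 bases, with 0.00955 and 0 CPM in clones 1 and 2, against 2.92 CPM in the control. Its nearer neighbour Jak3, at 796 bases, was higher in both clones (log2 0.93 and 0.47). Beside Mgat4a, Unc50 at 353 bases averaged 35.1 and 37.7 CPM in clones 1 and 2, against 36.0 CPM in the control, and was not called. Cracdl, 70616 bases from Mgat4a, had 0 CPM in both clones, against 9.74 CPM in the control, and was called lower in both, while Coa5 at 9237 bases was lower in clone 1 alone by the test (-0.50, and -0.05 in clone 2).

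St6galnac2, which sialylates the first sugar of O-glycans, fell while St6galnac4 and St6galnac6 rose. It had 21, 53 and 19 counts in clone 1 and 15, 20 and 8 counts in clone 2, against 862, 971 and 1136 counts in the control. It was 30.2-fold lower in clone 1 and 73.1-fold lower in clone 2 (adjusted p = 1.93e-08 and 7.02e-09). St6gal1, the main enzyme that caps N-glycans with sialic acid on carbon 6 of galactose, averaged 38.5 ± 0.910 CPM in clone 1 and 28.8 ± 0.845 CPM in clone 2, against 51.6 ± 3.28 CPM in the control (log2 -0.42 and -0.84). Per kilobase, St6galnac4 led the St6gal family in the clones with 42.7% and 50.1%, whereas St6gal1 led it in the control with 57.3%. The family sum was 42.6 and 50.7 CPM per kilobase in clones 1 and 2, against 18.3 in the control. Of the 8 St6gal genes 4 were tested, of which 2 rose and 2 fell in each clone. The other 4, St6gal2, St6galnac1, St6galnac3 and St6galnac5, had at most 2 counts in a library.

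All 6 St3gal genes were tested, of which 2 rose and 2 fell in clone 1, with 3 and 3 in clone 2. St3gal2, which sialylates core 1 O-glycans and gangliosides, lay at 66.2, 69.7 and 70.9 CPM in clone 1 and at 42.2, 46.2 and 46.4 CPM in clone 2, against 13.7, 13.7 and 14.9 CPM in the control (log2 2.29 ± 0.07 and 1.67 ± 0.06, adjusted p = 5.60e-11 and 7.00e-10). St3gal1, which acts on the same core 1 structure, lay at 133, 142 and 139 CPM in clone 1 and at 41.3, 44.2 and 43.9 CPM in clone 2, against 114, 124 and 128 CPM in the control. Clone 2 lay far under the others (-1.50 ± 0.06, adjusted p = 6.21e-10), and the small difference in clone 1 (0.18 ± 0.06, adjusted p = 0.0117) did not pass without control replicate 1 (0.13). St3gal4, which sialylates lactosamine ends, averaged 36.3 ± 0.285 CPM in clone 1 and 68.4 ± 3.65 CPM in clone 2, against 40.6 ± 4.14 CPM in the control. It rose in clone 2 (0.75 ± 0.07, adjusted p = 2.72e-06). In clone 1 its value was -0.16 ± 0.07 (adjusted p = 0.0671), which passed with the replicate number as a block (-0.16, adjusted p = 0.0092). St3gal3 averaged 18.3 and 20.9 CPM in clones 1 and 2, against 27.2 CPM in the control (log2 -0.57 and -0.38). St3gal6 averaged 0.749 and 0.470 CPM in clones 1 and 2, against 2.07 CPM in the control (log2 -1.47 and -2.14). It shares 26.0% of its exon bases with Dcbld2 on the opposite strand, and the sources used here do not give the strand setting of the counting. St3gal5, which makes the ganglioside GM3, was the leading St3gal gene per kilobase in all groups, with 43.8% and 50.4% of the family in clones 1 and 2, against 48.1% in the control. It averaged 108 ± 3.83 CPM in clone 1 (adjusted p = 0.878) and 123 ± 1.34 CPM in clone 2 (log2 0.18 ± 0.05, adjusted p = 0.00376), against 108 ± 3.35 CPM in the control.

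St8sia transcripts were scarce. Of 7 St8sia genes, 4 had 0 counts in all 9 libraries and St8sia6 alone was tested. St8sia6, which extends sialic acid on O-glycans, had 0 counts in each clone 1 library and 0, 8 and 0 counts in clone 2, against 81, 68 and 64 counts in the control. Clone 1 lay at least 67.1-fold under the control and clone 2 28.2-fold under it (95% counting interval 10.6 to 105, adjusted p = 0.000119 and 0.000325), and all clone 2 counts came from replicate 2.

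Mucin transcripts were low in every group. No Muc gene averaged 5 CPM in any group, and of 10 Muc genes 3 were tested. Muc1, the transmembrane mucin of glandular epithelium, lay at 2.17, 1.39 and 0.946 CPM in clone 1 and at 0.684, 0.609 and 0.805 CPM in clone 2, against 0.419, 0.351 and 0.383 CPM in the control. Each clone library was above the control, and Muc1 rose in clone 1 (log2 1.96 ± 0.31, adjusted p = 0.000132) and in clone 2 (0.86 ± 0.32, adjusted p = 0.0308). The clone 2 call was lost in 5 of 9 fits that left out 1 library (any control replicate, or replicate 1 or 3 of clone 2), at 0.75 to 0.90. Muc15, another membrane mucin, lay at 0.303, 0.289 and 0.315 CPM in clone 1 and at 6.19, 3.35 and 4.43 CPM in clone 2, against 1.98, 2.61 and 1.36 CPM in the control. The 3 groups did not overlap: it fell in clone 1 (-2.70 ± 0.33, adjusted p = 1.60e-05) and rose in clone 2 (1.24 ± 0.26, adjusted p = 0.00104). Muc20 had 0 counts in all 6 clone libraries, against 37, 65 and 52 counts in the control (at least 48.5-fold lower in clone 1, and in clone 2 at least 54.3-fold lower). The gel-forming mucins Muc2, Muc5ac, Muc5b and Muc6 and the membrane mucins Muc3, Muc4 and Muc13 had at most 16 counts in a library.

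The clones were also compared with each other. Of 41 tested members, 11 were higher and 18 lower in clone 2 than in clone 1 (70.7%, where 57.6% of all genes tested were called, 30.1% higher and 27.5% lower), with a median log2 fold change of -0.17. At a 2-fold change or more, 5 were higher and 8 lower (31.7%, all genes 14.4%, with 7.58% higher and 6.80% lower). Tested against a 2-fold change itself with edgeR's glmTreat, 6 of 41 tested members differed, where 8.52% of all genes tested did. Mgat4a was higher in clone 2 (4.80 ± 0.41, glmTreat adjusted p = 2.32e-05), 29.0-fold by its counts (95% counting interval 11.1 to 108), though 72.2-fold under the control even there. Muc15 was also higher in clone 2 (3.94 ± 0.32, glmTreat adjusted p = 1.49e-05). St3gal1 (-1.68 ± 0.06, glmTreat adjusted p = 5.02e-07), Galnt15 (-1.96 ± 0.11, glmTreat adjusted p = 7.83e-06), Galnt9 (-2.82 ± 0.37, glmTreat adjusted p = 0.00314) and Galnt12 (at least 22.4-fold, glmTreat adjusted p = 0.00075) were lower in clone 2. Against the control the same test called 20 of 41 tested members in clone 1 and 22 of 41 in clone 2, where it called 25.7% and 24.3% of all genes tested. With the replicate number as a block, 3 further members differed between clone 2 and clone 1: Galnt1 (-0.19, adjusted p = 0.000378), Galnt10 (0.12, adjusted p = 0.00957) and St3gal3 (0.19, adjusted p = 0.00958).

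The other genes of the pathway were taken as 9 lists of 128 genes, chosen from textbook roles with earlier results of these data known. Of these 127 had a row and 86 were tested. In clone 1, 42 were higher and 29 lower (82.6% called), and in clone 2, 41 were higher and 29 lower (81.4%), where 76.5% and 74.4% of all genes tested were called, with medians of 0.17 and 0.25. Between the clones, 31 were higher and 23 lower in clone 2 (62.8%, all genes 57.6%). Of 8 tested genes listed as core and branch enzymes of O-glycans, 4 rose and 3 fell in clone 1, with 2 and 4 in clone 2. Gcnt3, Gcnt1 and Gcnt4, named for the largest changes, fell in both clones. Gcnt2 was called higher in clone 1 (log2 0.27) and lower in clone 2 (-0.47), and Gcnt7 was called in neither. C1galt1 rose in clone 1 (1.17) and was not called in clone 2 (0.26). C1galt1c1 (0.89 and 0.63) and B3gntl1 (0.42 and 0.34) rose in both. Gcnt3, which makes core 2 and core 4 branches, averaged 2.65 and 0.970 CPM in clones 1 and 2, against 193 CPM in the control (72.3- and 198-fold lower). Gcnt1, the leukocyte-type core 2 enzyme, averaged 0.0189 and 0.408 CPM in clones 1 and 2, against 11.7 CPM in the control. Gcnt4 averaged 6.30 CPM in clone 1 and had 0 counts in clone 2, against 19.4 CPM in the control.

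**Figure D4:**
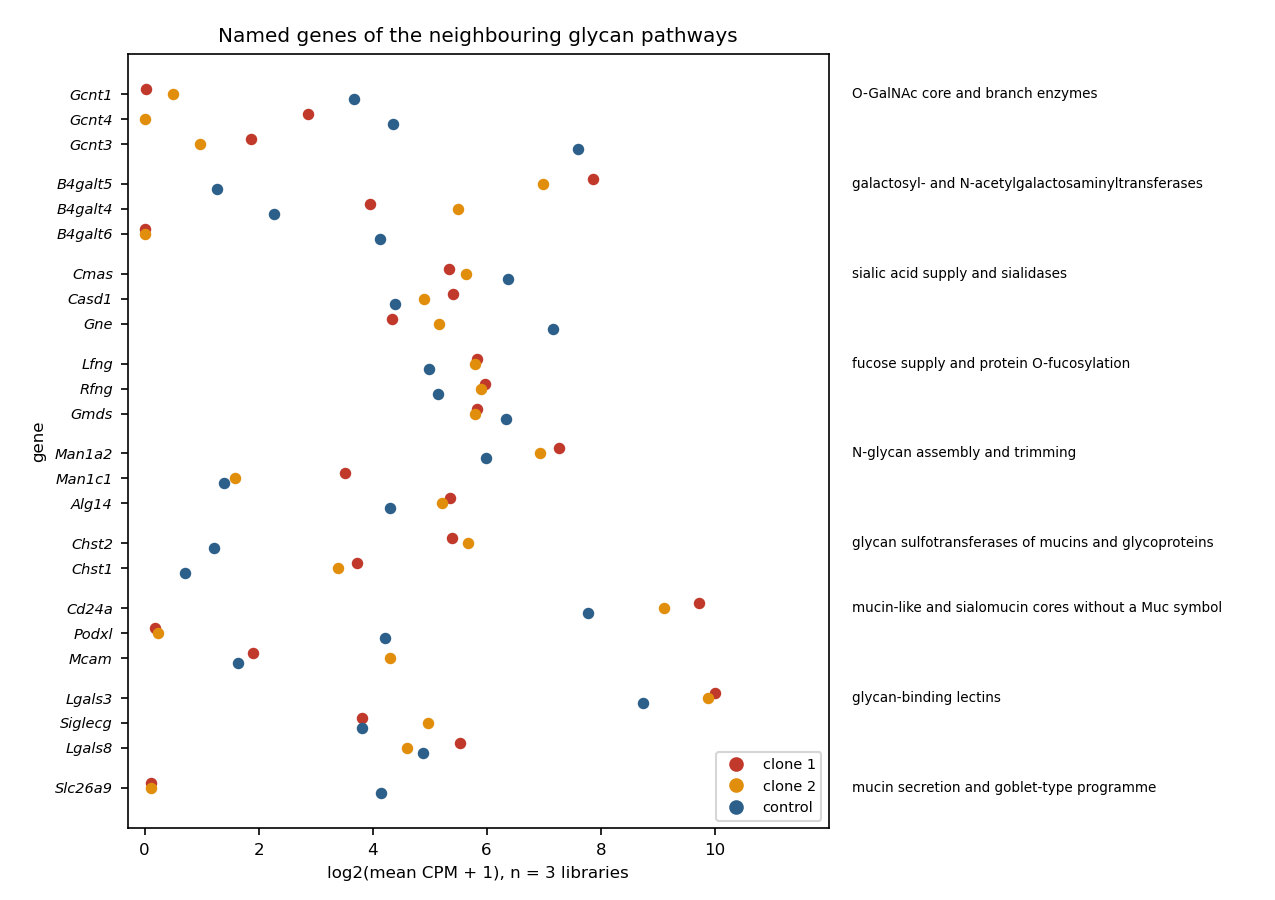
Level (x axis, log2 of mean CPM + 1 over 3 libraries) of the genes named for the largest mean change in the other pathway lists (y axis), in clone 1, clone 2 and the control. Gcnt3 is highest in the control, while B4galt5 and Chst2 are highest in the clones.

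Of 12 tested galactosyl- and N-acetylgalactosaminyltransferases, 5 rose and 4 fell in clone 1, with 4 and 6 in clone 2. B4galt5 and B4galt6, which both make lactosylceramide, changed in opposite directions. B4galt5 averaged 233 ± 8.07 CPM in clone 1 and 126 ± 1.75 CPM in clone 2, against 1.40 ± 0.0519 CPM in the control (log2 7.38 and 6.49, edgeR adjusted p = 3.24e-14 and 1.10e-13). B4galt6 had 0 counts in all clone libraries, against 16.6 ± 1.12 CPM in the control. B4galt4 averaged 14.5 and 44.3 CPM in clones 1 and 2, against 3.80 CPM in the control.

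Of 10 tested genes of sialic acid supply and removal, 3 rose and 5 fell in clone 1, with 4 and 6 in clone 2. Gne, which starts sialic acid synthesis, averaged 19.3 ± 0.255 CPM in clone 1 and 34.9 ± 1.56 CPM in clone 2, against 143 ± 16.6 CPM in the control (log2 -2.88 and -2.03). Cmas, which activates sialic acid for transfer, averaged 39.3 and 49.0 CPM in clones 1 and 2, against 81.6 CPM in the control (-1.05 and -0.74). Casd1, which O-acetylates sialic acid, averaged 41.7 and 28.9 CPM in clones 1 and 2, against 20.0 CPM in the control (1.06 and 0.53). Of 26 genes of N-glycan assembly and trimming, 17 rose and 5 fell in clone 1, with 18 and 3 in clone 2, mostly by less than 2-fold. The shares called were 84.6% and 80.8% in clones 1 and 2, where all genes tested had 76.5% and 74.4%. At a 2-fold change or more they were 11.5% and 7.69%, where all genes had 32.5% and 30.5%. Man1a2, a Golgi mannosidase, averaged 153 and 121 CPM in clones 1 and 2, against 62.5 CPM in the control (1.29 and 0.95). Man1c1, another one, rose in clone 1 alone by the test, at 10.5 and 1.99 CPM in clones 1 and 2, against 1.61 CPM in the control (2.70 and 0.30). It was lower in clone 2 than in clone 1 (-2.40 ± 0.19, adjusted p = 1.45e-06). Alg14, which helps assemble the lipid-linked precursor, averaged 39.8 and 36.2 CPM in clones 1 and 2, against 18.8 CPM in the control (1.08 and 0.94).

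Of 10 tested genes of fucose supply and protein O-fucosylation, 4 rose and 5 fell in clone 1, with 3 and 3 in clone 2, none by 2-fold. Lfng and Rfng, the Fringe enzymes that modify O-fucose on Notch, rose in both clones (log2 0.76 to 0.87), and Gmds, which starts GDP-fucose synthesis, fell in both (-0.52 and -0.55). Each of the 3 tested sulfotransferases was higher in clone 1, whereas 1 of them, Chst8, was lower in clone 2. Chst2 averaged 40.9 and 49.8 CPM in clones 1 and 2, against 1.33 CPM in the control (30.4- and 37.0-fold higher), and Chst1 averaged 12.2 and 9.52 CPM, against 0.637 CPM in the control. Of 9 tested genes listed as mucin-like without a Muc symbol, 4 rose and 4 fell in clone 1, with 4 and 2 in clone 2. The list counts in Mcam, which is an adhesion protein and rose in both clones. Podxl, a sialomucin, averaged 0.129 and 0.175 CPM in clones 1 and 2, against 17.5 CPM in the control (138- and 99.1-fold lower), whereas Cd24a averaged 847 and 549.7 CPM in clones 1 and 2, against 218 CPM in the control. Mcam averaged 2.72 and 18.8 CPM in clones 1 and 2, against 2.12 CPM in the control (0.36 and 3.15). Of 6 tested lectins, 2 rose and 1 fell in clone 1, with 3 and 3 in clone 2. Lgals3, a galectin that binds lactosamine, averaged 1031 ± 60.6 and 941 ± 15.6 CPM in clones 1 and 2, against 428 ± 60.8 CPM in the control (log2 1.27 and 1.14). Siglecg, a sialic acid receptor of B cells, averaged 13.0 and 30.2 CPM in clones 1 and 2, against 13.1 CPM in the control, and passed the test in clone 2 (1.21 ± 0.07, adjusted p = 1.54e-08). Lgals8, another galectin, averaged 45.3 and 23.4 CPM in clones 1 and 2, against 28.4 CPM in the control (0.68 and -0.28). In the list on mucin secretion and goblet cells 2 of 13 genes were tested. Of these, Slc26a9, an anion transporter, averaged 0.0852 and 0.0862 CPM in clones 1 and 2, against 16.7 CPM in the control.

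The genes whose pattern was most like that of Galnt3 were sought by Pearson's r of log2(CPM + 1) over the 9 libraries among 10699 genes at 5 CPM or more in a group, as a description. The 5 with the highest r were Golm2 (0.99998), B4galt6 (0.99995), Syde2 (0.99992), Cxadr (0.99990) and Marveld2 (0.99990). All were at or near 0 in both clones, and 477 genes had r over 0.99. The 9 libraries form 3 groups, so the points are not independent.

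Chromosomes differed in the median log2 fold change of all their tested genes, and the members' smaller changes are given beside these medians. Chromosome 14 had medians of 0.61 and 0.48 in clones 1 and 2, chromosome 3 had 0.51 and 0.41, chromosome 4 had -0.49 and -0.53, and chromosome 7 had -0.43 and -0.42. Of called members that changed by less than 2-fold, 8 of 13 in clone 1 and 7 of 15 in clone 2 lay on a chromosome whose median had the same sign and a size of at least 0.2. The same share over all tested genes was not computed, so these counts show nothing particular to the members. Fut11 on chromosome 14 had log2 fold changes of 0.72 and 0.41, within 0.11 of its chromosome's medians, and St3gal3 on chromosome 4 had -0.57 and -0.38, within 0.15 of them. Galnt10, Mgat1 and St6galnac4 lay on chromosomes with medians between -0.06 and 0.03. The part of these medians in the members' values was not tested.

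**Figure D5:**
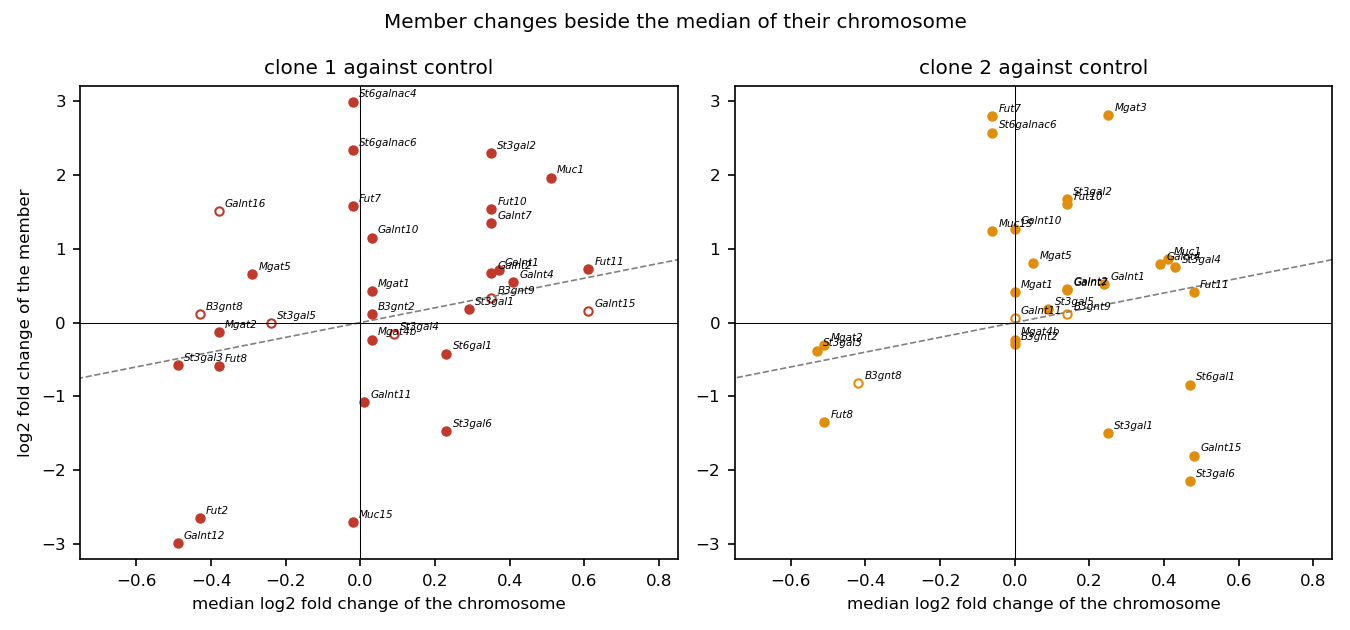
Log2 fold change of each tested member (y axis) against the median log2 fold change of all tested genes on its chromosome (x axis), for clone 1 and clone 2 against the control. Filled circles passed the test, the dashed line marks equal values, and 9 members in clone 1 and 12 in clone 2 lie outside the plotted range of 3 on either side. Fut11 and St3gal3 lie near the line, and Mgat5 lies off it.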

How the data were processed

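The deposited table holds raw read counts per gene in 9 libraries: whole numbers with no normalization, made by the authors, 1 column per library. Per the submitters' processing notes, fastp, Subread and DESeq2 were used with mouse builds mm10 and GRCm38. Versions, annotation, strand setting and the handling of read pairs are not given there or in the labels, which also do not say at which step the technical replicates parted.

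Gene identifiers were given symbols from RefSeq (24570 of 24594 matched, the others at most 0.202% of a library). Gene positions also came from RefSeq. Exon lengths, strands and overlaps came from GENCODE vM21 (GRCm38), with a length for 75 of 76 members. Of the symbols that match the naming rule, 3 have no row and are not analysed here. Counts were analysed with edgeR 4.0.16 in R 4.3.3: filterByExpr with a minimum count of 10 kept 13928 genes, libraries were scaled by TMM, and a quasi-likelihood model with 3 groups over all 9 libraries gave each contrast, with Benjamini-Hochberg adjusted p under 0.05 as the threshold. CPM are TMM-scaled, errors on levels are SD (n = 3), and the standard error of a log2 fold change is its size over the square root of F. Folds are ratios of summed counts scaled by library size. A fold against 0 counts is a bound against 3 counts over the group, and intervals are exact at 95%, on counts taken 2 at a time.

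The members and all lists were chosen with earlier results of these data known. Members at 5 CPM or more in a group that were called with a 2-fold change against the control, or that passed glmTreat between clones at 1 CPM or more, are given by library. Of the other lists, up to 3 tested genes at 5 CPM or more in a group, those with the largest mean change, are named. Chst8 and the remaining tested genes listed as core and branch enzymes of O-glycans were named after their values were seen. Neighbours were taken within 100000 bases.

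The r of deviations from group means was 0.193 to 0.671 over 9 same-numbered pairs, against -0.617 to 0.483 for unlike numbers. Replicate 1 stood apart (0.655 to 0.671 between groups), but replicates 2 and 3 were not clearly paired by number. Control replicate 3, for example, had 0.193 with clone 2 replicate 3 and 0.478 with clone 2 replicate 2. The numbers were taken as pairs in an alternative with a replicate block, though the labels state no pairing. Other alternatives were RLE factors, total counts, DESeq2 1.42.0, no filter, a minimum count of 50, glmTreat at a 2-fold change and leaving out each library. On simulated counts for clone 1 against control, 200 of 13328 genes were changed. The test found 49 of 67 genes at a 1.5-fold change, 61 of 67 at 2-fold and 64 of 66 at 4-fold. Among its 179 calls 5 were false. In the data themselves 76.5% of genes tested were called in clone 1. Detection and false calls at such a share of changed genes were not tested.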

Additional observations from a re-analysis of the deposited data

Results flagged for a closer look

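These members differed between the 2 knockout clones by more than 2-fold in edgeR's glmTreat test, so that their change against the control is not the same in both clones. Galnt12 differed by -7.42 on the log2 scale (clone 2 minus clone 1). That fitted value depends on the prior count because clone 2 had 0 counts, and by its counts it was at least 22.4-fold lower in clone 2. Galnt15 differed by -1.96, Galnt9 by -2.82 and St3gal1 by -1.68, all lower in clone 2. Mgat4a differed by 4.80 and Muc15 by 3.94, both higher in clone 2. In Muc15 the clones lay on opposite sides of the control, with clone 2 above it and clone 1 under it. In Galnt15 and St3gal1 clone 2 was under the control and clone 1 lay within 0.2 of it on the log2 scale. Galnt12 and Mgat4a were lower than the control in both clones, and Galnt9 was higher in both.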

How the results depend on the processing

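Member values were recomputed under each alternative, 1956 values in all, of which 1830 kept their direction and their side of the threshold, 110 lost and 10 gained a call, and 6 changed sign. A stricter test changed the counts most: against a 2-fold change with glmTreat, 9 members were called higher and 11 lower in clone 1 (18 and 17 against no change). In clone 2 it called 22 members in all (38 against no change), of which 9 were higher (20) and the others lower. Between the clones it called 2 higher and 4 lower (11 and 18). Of the pathway genes it called 25 (71) and 21 (70) in clones 1 and 2, and 12 (54) between the clones.

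With the replicate numbers as a block, the calls of St3gal4 in clone 1 (-0.16) and of Galnt1 (-0.19), Galnt10 (0.12) and St3gal3 (0.19) between the clones were gained, and the block changed no other member's call. Over all genes it called 11420 and 11257 genes in clones 1 and 2 and 9439 between the clones, against 10653, 10367 and 8018 without it.

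Leaving out 1 library gave 17 to 18 members higher and 15 to 18 lower in clone 1, 18 to 20 higher and 17 to 18 lower in clone 2, and 9 to 11 higher and 14 to 19 lower between the clones. Pathway genes called were 64 to 72, 68 to 71 and 47 to 57. The sign changed in uncalled members only: B3gnt8 in clone 1 without clone 1 replicate 2 (-0.06) or 3 (-0.03, highest value 0.38), and B3gnt9 without clone 1 replicate 2 in clone 1 (-0.18, highest 0.59) and between the clones (0.30, lowest -0.47). The other 2 were St3gal5 in clone 1 without clone 1 replicate 1 (0.01, lowest -0.04) and B3gnt3 between the clones without clone 2 replicate 1 (-0.36, highest 0.46). Between the clones, calls of Mgat5, Fut2, St3gal6, St6galnac2, St6galnac6, B3gnt7, Galnt4 and Mgat2 were lost when some single library was left out, St6galnac2 at -0.69 without clone 1 replicate 2. The cause was not tested. Other scalings moved the median of all genes by at most 0.012 upward and -0.022 downward.

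Depth limits members under about 1 CPM, whose values rest on few and mostly even counts. Clones and control differ in cloning as well as in Sox10, which cannot be told apart here.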

Other observations

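Some members below the filter had their few counts mostly in 1 group. Fut9, which makes Lewis x, had 0 and 0 counts in all over clones 1 and 2, against 24 counts over the control. Galnt6 had 0 and 0 counts in the clones, against 14 in the control, and St8sia4, a polysialyltransferase, 0 and 0 against 10. B3gnt6 had 4 and 2 counts in clones 1 and 2, against 26 in the control. These values carry no test, and with low counts mostly even they may stand for fewer events than counts.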
